A study of Mus musculus with 18 samples.

Results

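Of the 55491 rows in the gene count table, 8 carried the symbols of caspases, and these 8 rows were followed across genotype, gesicle treatment and oxygen. They were Casp1, Casp4 and Casp12 (inflammatory caspases), Casp2, Casp8, Casp9 and Casp6 (apoptotic caspases) and Casp14 (epidermal). The members were chosen by name, and each symbol matched 1 row. Polyadenylated RNA was sequenced from mouse tail tendon fibroblasts (TFs) kept for 4 days in 20% or 1% O2, in 6 groups of 3 biological replicates (18 libraries). Ctrl TFs came from Cre-negative mice, which the labels call wild-type, and cKO TFs from Hif1a fl/fl;ScxCre mice, in which a constitutive Cre driven by Scx, a transcription factor gene of tendon cells, acts on the floxed Hif1a gene. The third arm was Ctrl TFs that received Cre gesicles, vesicles that bring the recombinase into cells in culture. Their labels also read wild-type, whereas the paper's husbandry section describes Cre-negative Ctrl mice as Hif1a fl/fl. The Hif1a alleles of each sample are not given, and without floxed alleles Cre could not delete the gene. Donor mice were 4 to 6 months old, male and female, on a mixed C57BL6J/129S1 background, and the haplotype that each library carried at the caspase locus was not determined here. All TFs were passaged after crawling out of collagen gels, the labels and the methods differ in the serum level of the medium, and the methods do not describe the gesicle treatment.

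Caspases are cysteine proteases that are made as inactive precursors and cut their targets after aspartate. Initiator caspases are switched on when adaptor proteins bring their precursors together, Casp8 at death receptors, Casp9 on the apoptosome and Casp2 on the PIDDosome, and effector caspases such as Casp6 then cut structural proteins of the cell. Inflammatory caspases act instead on gasdermin D and interleukin precursors, Casp1 inside the inflammasome and Casp4 (also known as caspase-11) on sensing bacterial lipopolysaccharide, and both genes are known to be induced by interferon. Casp12 is an inflammatory caspase by sequence and has been linked to stress of the endoplasmic reticulum (ER). RNA levels report neither cleavage nor activity of any caspase.

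The genes of the 3 inflammatory caspases lay head to tail on the plus strand of chromosome 9 (GRCm38): Casp1 at chr9:5298517-5307265, Casp4 at chr9:5308828-5336783 and Casp12 at chr9:5345430-5373032. The gaps between them were 1562 and 8646 bases, and the whole cluster spanned 74516 bases. Within 500000 bases of Casp12, the other annotated features were the pseudogenes Gm7390, Gm48506 and Gm6015 and the small nucleolar RNA Gm24896, of which Gm7390 reached 35 counts in a library and the others no more than 2. The apoptotic caspases and Casp14 lay on other chromosomes: Casp8 on 1, Casp6 on 3, Casp9 on 4, Casp2 on 6 and Casp14 on 10.

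The promoters of the clustered genes are shown because the 3 genes lie side by side and Casp12 was far more abundant than its neighbours. Each window runs from 250 bases before to 50 bases after a RefSeq start site (GRCm38.p6, plus strand), and capitals mark matches to the motifs searched: the interferon-stimulated response element (GAAANNGAAA), the gamma-activated site of interferon-responsive genes (TTCNNNGAA), the kappa B site and the hypoxia response element cores ACGTG and GCGTG, on both strands. RefSeq gave 2 overlapping windows for Casp4, of which the first is shown.
Casp1, chr9:5298267-5298566: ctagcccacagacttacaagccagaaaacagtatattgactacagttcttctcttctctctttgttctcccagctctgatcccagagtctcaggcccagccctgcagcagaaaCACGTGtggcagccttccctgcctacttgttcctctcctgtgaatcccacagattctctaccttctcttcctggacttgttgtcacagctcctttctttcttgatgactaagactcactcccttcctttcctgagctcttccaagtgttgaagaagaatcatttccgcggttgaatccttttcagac
Casp4, chr9:5308599-5308898: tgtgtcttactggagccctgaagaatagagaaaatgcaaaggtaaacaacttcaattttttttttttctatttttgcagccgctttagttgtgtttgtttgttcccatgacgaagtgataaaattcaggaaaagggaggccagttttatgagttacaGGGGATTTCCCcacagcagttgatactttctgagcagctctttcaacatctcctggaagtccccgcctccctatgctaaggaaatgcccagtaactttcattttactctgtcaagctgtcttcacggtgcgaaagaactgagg
Casp12, chr9:5345226-5345525: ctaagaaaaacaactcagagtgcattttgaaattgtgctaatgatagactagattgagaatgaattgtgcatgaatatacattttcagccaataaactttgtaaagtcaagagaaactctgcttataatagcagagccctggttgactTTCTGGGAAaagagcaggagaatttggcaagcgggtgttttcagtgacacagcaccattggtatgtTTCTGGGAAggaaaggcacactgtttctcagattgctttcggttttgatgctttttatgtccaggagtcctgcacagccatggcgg
The Casp12 window held TTCTGGGAA, a match to the gamma-activated site, in 2 places, 102 and 36 bases before the start site. At least 1 such match occurred in 8.3% of 32851 promoter windows of this length, and 0.457% had 2. The Casp4 window held a run of overlapping kappa B matches starting 93 bases before the start site (4.51% of windows had a match). The Casp1 window held a palindrome of the ACGTG core 137 bases before the start site, and 19.6% of windows had that core. No window of the 8 caspases held the interferon-stimulated response element, which 3.44% of all windows did. Outside the cluster, the ACGTG core occurred in the Casp6 window and the GCGTG core (32.4% of windows) in those of Casp2 and Casp9, while the windows of Casp8 and Casp14 held no match. A match of letters is a description and no evidence of binding.

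All 8 caspases passed the filter on low counts. Levels are CPM (counts scaled to a common library size, here by TMM over all 18 libraries). They are divided by the summed exon length when single genes are compared, but not in sums over several genes. Casp8 was the highest, with a median of 18.3 CPM per kb over the 18 libraries, followed by Casp12 (13.9), Casp9 (5.34), Casp6 (4.84), Casp2 (2.58), Casp1 (1.04), Casp14 (0.895) and Casp4 (0.603). The range of each caspase overlapped that of its neighbours in this order with 2 exceptions: the lowest Casp12 library (7.61 CPM per kb) was above the highest Casp9 library (6.76), and the lowest Casp6 library (4.25) was above the highest Casp2 library (3.09). Casp12 was therefore the main transcript of the inflammatory class, whereas Casp1 and Casp4 were low: Casp1 had 5 counts in the shallowest library and 27 to 190 in the others, and Casp4 between 22 and 258. The highest and lowest library differed by 7.56-fold for Casp4, 5.27-fold for Casp1, 3.24-fold for Casp14 and 3.20-fold for Casp12, while Casp8 was the steadiest, between 43.8 and 65.6 CPM.

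**Figure D1:**
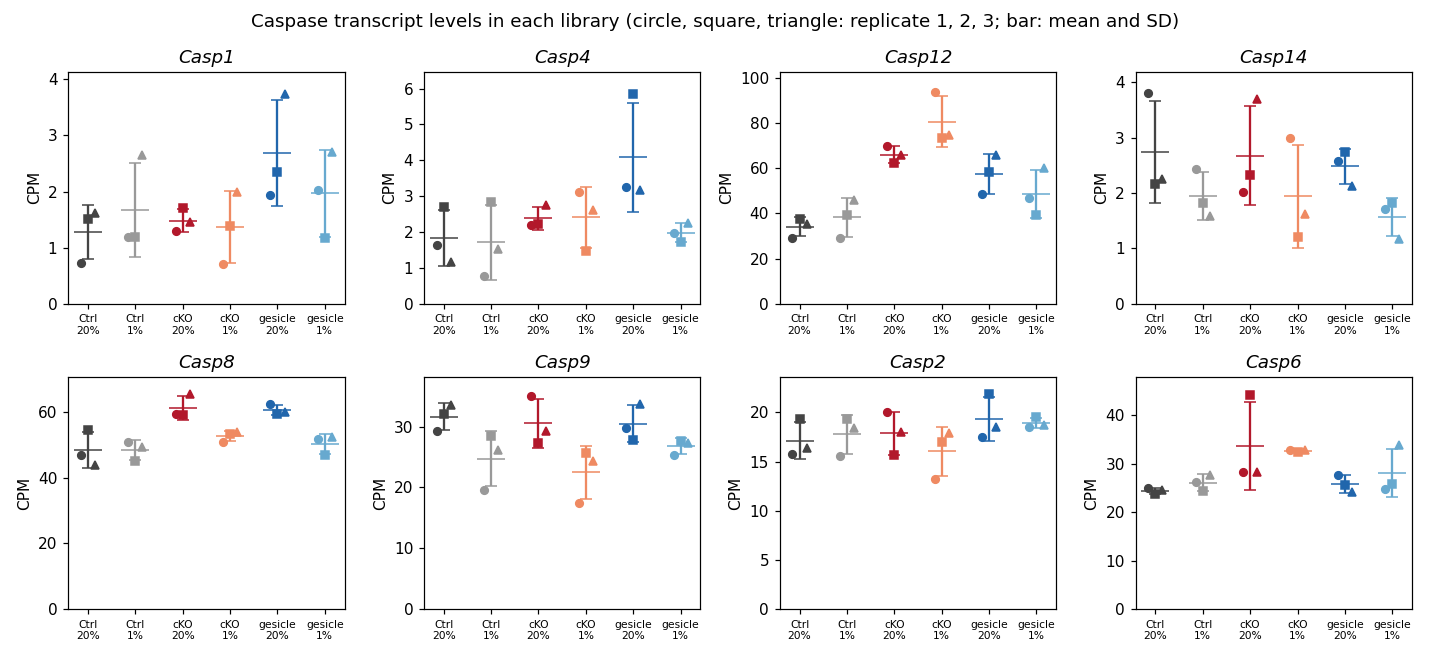
CPM of the 8 caspases (y axis, from 0) in the 6 groups (x axis), with 1 point per library and the mean and SD of 3 libraries. All 6 cKO libraries lie above all 6 Ctrl libraries for Casp12, and the 3 gesicle-treated libraries in 20% O2 lie above the 3 Ctrl libraries for Casp1, Casp4, Casp12 and Casp8.

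Library totals ranged from 6857558 (cKO 1% O2 replicate 1) to 51806453 counts. Hif1a transcript was not lower in cKO than in Ctrl TFs (log2 fold change 0.11 ± 0.16 SE in 20% O2 and 0.08 ± 0.16 SE in 1% O2) or after gesicle treatment (0.06 ± 0.14 SE and -0.13 ± 0.14 SE), so that a total gene count does not check the deletion labels. By Xist and the Y-linked Ddx3y, Ctrl and gesicle-treated libraries had 1 male and 2 females per group, with the same sex at the same number, and cKO groups had 2 males and 1 female. Tendon fibroblast markers, including Scx and Tnmd, were present in every library.

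Casp12 was about 2 times as abundant in cKO TFs as in Ctrl TFs at both oxygen levels. Casp1 and Casp4 beside it in the genome were not called, and whether their differences were smaller than that of Casp12 was not tested. In 20% O2, Casp12 was at 29.3, 37.4 and 35.5 CPM in Ctrl libraries and at 69.7, 62.2 and 65.8 CPM in cKO libraries. In 1% O2 the values were 29.2, 39.5 and 46.1 CPM in Ctrl and 93.6, 73.4 and 74.7 CPM in cKO libraries. The lowest cKO library was above the highest Ctrl library in each case, and cKO 1% O2 replicate 1, the shallowest library, was the highest of all.

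Casp12 rose in cKO TFs in 20% O2 by a log2 fold change of 0.95 ± 0.17 SE (edgeR quasi-likelihood test, adjusted p = 0.0447) and averaged over both oxygen levels by 1.01 ± 0.12 SE (adjusted p = 0.00217). In 1% O2 the log2 difference was 1.07 ± 0.17 SE, with an adjusted p of 0.0576, which missed the threshold of 0.05, although DESeq2 called it (adjusted p = 1.01e-05). The average over oxygen levels kept its call without any 1 library (adjusted p from 0.00318 to 0.00923). The call in 20% O2 alone was lost without any 1 of its 6 libraries (adjusted p from 0.0503 to 0.261), and the averaged call was lost when both libraries of a replicate number were summed (adjusted p = 0.0736). Ctrl libraries of equal number deviated together across oxygen levels (r from 0.246 to 0.41), and the average counts them as separate samples. With the replicate number as a block, the adjusted p in 20% O2 was 0.0673.

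Genes were called when the adjusted p was under 0.05 and the fold change reached 1.5. By this rule 1 of the 8 caspases, Casp12, was called in 20% O2, where 0.347% of all genes tested were. In 1% O2 0 of 8 were called by edgeR (0.0379% of all genes) and 1 of 8, Casp12, by DESeq2 (2.29%). Averaged over oxygen, 1 of 8 was called against 3.78% of all genes. At an unadjusted p under 0.05 with the same fold change, Casp12 alone passed in each of these comparisons, beside 8.53% of all genes in 20% O2, 9.77% in 1% O2 and 11.2% in the average. In bulk RNA, more transcript per cell and more cells that make it cannot be told apart.

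The other inflammatory caspases stayed within the replicate spread. Casp1 averaged 1.28 ± 0.485 CPM in Ctrl and 1.48 ± 0.209 CPM in cKO TFs in 20% O2, and at 1.67 ± 0.840 and 1.36 ± 0.645 CPM in 1% O2 (SD, n = 3 each). Casp4 was at 1.83 ± 0.783 and 2.38 ± 0.313 CPM in 20% O2, and at 1.71 ± 1.04 and 2.41 ± 0.852 CPM in 1% O2 (SD, n = 3 each). The 95% interval of the averaged log2 difference ran from -0.71 to 0.70 for Casp1 and from -0.29 to 1.13 for Casp4. These intervals are wide, and a difference of the size seen for Casp12 lay outside the interval of Casp1 but inside that of Casp4.

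Among the apoptotic caspases, Casp8, the initiator at death receptors, and Casp6, an effector that cuts nuclear lamins, had groups that did not overlap. Casp8 was at 47.0, 54.7 and 43.8 CPM in Ctrl and at 59.4, 59.2 and 65.6 CPM in cKO libraries in 20% O2. Casp6 was at 24.9, 23.7 and 24.6 CPM in Ctrl and at 28.4, 44.2 and 28.4 CPM in cKO libraries, so that cKO replicate 2 stood well above the other cKO libraries. In 1% O2, Casp6 was at 26.3, 24.4 and 27.8 CPM in Ctrl and at 32.9, 32.4 and 32.9 CPM in cKO libraries. Neither gene passed the test: the log2 difference in 20% O2 was 0.34 ± 0.11 SE for Casp8 (adjusted p = 0.246) and 0.46 ± 0.16 SE for Casp6 (adjusted p = 0.265). Without cKO replicate 2, the Casp6 difference in 20% O2 was 0.20. Averaged over oxygen the log2 differences were 0.23 ± 0.08 SE for Casp8 (adjusted p = 0.101) and 0.39 ± 0.12 SE for Casp6 (adjusted p = 0.0655). With Casp12, these 2 genes made 3 of 8 caspases with non-overlapping groups at each oxygen level, whereas 21.2% of all genes had such groups in 20% O2 and 27.3% in 1% O2. For Casp8 in 1% O2 the groups barely parted. The highest Ctrl library was at 50.88 CPM and the lowest cKO library, the shallowest of all, at 50.94 CPM. The log2 difference there was 0.12 ± 0.12 SE (edgeR adjusted p = 0.593).

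Casp2, the PIDDosome initiator, and Casp9, the apoptosome initiator, were close in both genotypes. The averaged log2 difference had a 95% interval from -0.29 to 0.21 for Casp2 and from -0.36 to 0.18 for Casp9, both below the fold change of 1.5. Casp14, a caspase of differentiating keratinocytes, was low in every library, between 1.17 and 3.81 CPM, with an averaged interval from -0.65 to 0.52. The summed CPM of the inflammatory class relative to that of the apoptotic class was 0.305 ± 0.0299 in Ctrl and 0.486 ± 0.0311 in cKO TFs in 20% O2, and 0.354 ± 0.0690 in Ctrl and 0.687 ± 0.143 in cKO TFs in 1% O2 (SD, n = 3 each). In gesicle-treated TFs it was 0.472 ± 0.0740 in 20% O2 and 0.421 ± 0.0701 in 1% O2 (SD, n = 3 each). Casp12 made up 87.7% to 96.3% of the inflammatory sum in each library, so that this ratio follows mainly Casp12. The sums were not divided by exon length, so genes with longer exons weigh more in the ratio and in this share.

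**Figure D2:**
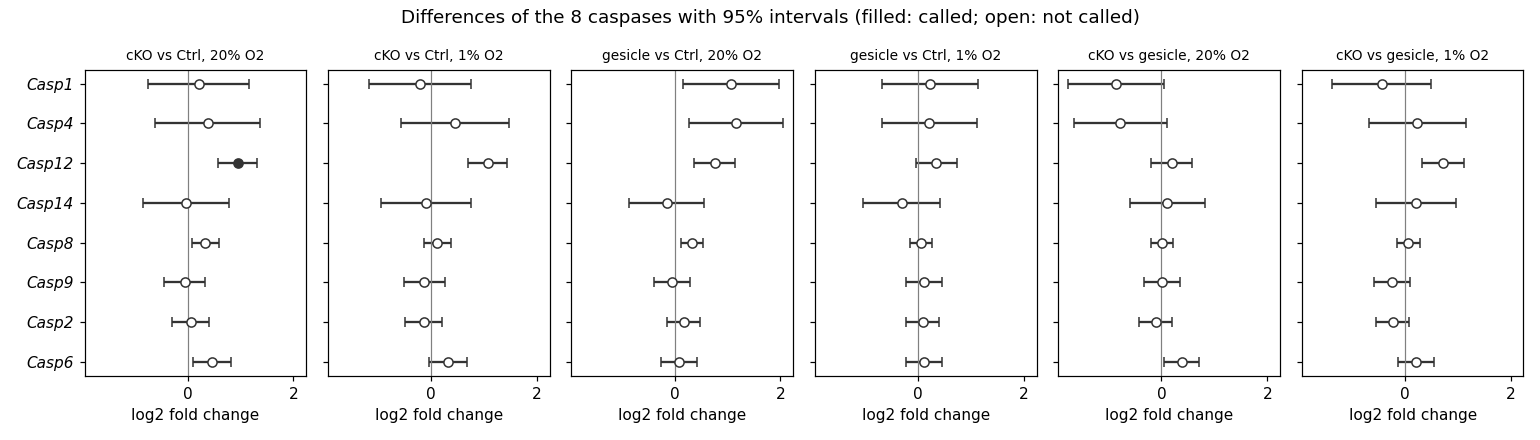
Log2 fold changes (x axis) of the 8 caspases (y axis) in 6 comparisons, with 95% intervals, where a filled point was called by edgeR and an open point was not. Casp12 lies right of 0 with its whole interval in both comparisons of cKO with Ctrl TFs, and Casp6 and Casp8 do so in 20% O2. All 3 inflammatory caspases and Casp8 do so for gesicle-treated against Ctrl TFs in 20% O2. For cKO against gesicle-treated TFs, Casp6 does so in 20% O2 and Casp12 in 1% O2.

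The partners of the caspases showed 2 sets of called genes in cKO TFs. Averaged over oxygen, edgeR called 2 of the 10 tested genes of the inflammasome list, both higher, beside 3.78% of all genes called in either direction. One was Pycard (log2 fold change 0.95 ± 0.25 SE, adjusted p = 0.0479), which encodes the adaptor ASC that recruits Casp1. The other was Txnip (0.59 ± 0.15 SE, adjusted p = 0.0472), which binds thioredoxin and has been linked to the inflammasome sensor Nlrp3. DESeq2 called both as well. Both edgeR values lay close to the threshold of 0.05, and this average counts the libraries of a replicate number as separate samples. Pycard was low, at 2.65, 3.51 and 2.10 CPM in Ctrl and 6.28, 7.13 and 3.13 CPM in cKO libraries in 20% O2, with overlapping groups. Nlrp3 itself was at 0 in 16 of the 18 libraries and reached at most 0.0764 CPM, and Il1b, the substrate of Casp1, was at 0 in all 18. The median log2 difference of the list was 0.08, beside 0.02 for all genes.

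Of the listed genes of the ER stress response, with which Casp12 has been associated, edgeR called 0 higher in cKO TFs at either oxygen level. Of 21 listed genes, 0 rose and 2 fell in the average over oxygen, where 3.78% of all genes were called. The 2 that fell were Atf6, a stress sensor of the ER membrane (log2 fold change -0.72 ± 0.17 SE, adjusted p = 0.0361), and Edem1, which acts in the degradation of misfolded proteins (-0.60 ± 0.16 SE, adjusted p = 0.0486). Ern1, which encodes the sensor IRE1, was at -0.95 ± 0.27 SE and was not called by edgeR (adjusted p = 0.0598) but by DESeq2. The median of the list in the average over oxygen was -0.13, and 13 of the 21 genes were lower in cKO TFs. The 2 oxygen levels differed: 16 genes were lower in 20% O2 (median -0.23), while 10 were lower and 11 higher in 1% O2 (median 0.05). The interaction of genotype and oxygen was positive for 17 of the 21 genes, and 0 were called. Atf6 was at 68.9, 68.7 and 81.2 CPM in Ctrl and 52.4, 29.9 and 41.0 CPM in cKO libraries in 20% O2, and these groups did not overlap. In 1% O2, Atf6 was at 31.8, 61.1 and 50.1 CPM in Ctrl and 27.3, 31.5 and 35.5 CPM in cKO libraries, and the groups overlapped.

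The other lists held no called gene in this average: 0 of 10 for the apoptosome and its inhibitors, 0 of 10 for the death receptor complex, 0 of 2 for the PIDDosome, 0 of 10 for caspase substrates and nucleases, and 0 of 10 for interferon regulators. DESeq2 likewise called 0 genes in these lists, and at an unadjusted p under 0.05 with a fold change of at least 1.5 none passed. Some genes listed as markers of other cell types differed with genotype, and some sums rested mainly on a single gene. Summed mural cell markers ranged from 64.4 to 113 CPM in Ctrl and from 27.9 to 44.9 CPM in cKO libraries in 20% O2, and from 33.4 to 63.8 and from 24.5 to 35.8 CPM in 1% O2, with Rgs5 and Cspg4 called among 5 markers. Of 5 skeletal muscle markers, Acta1 fell (log2 fold change -0.91 ± 0.17 SE, adjusted p = 0.0154), while Ckm and Pax7 were at 0 in all 18 libraries. Myod1 was at 0 in 16 of them and Myog in 17. Summed Schwann cell markers ranged from 5.34 to 10.6 CPM in Ctrl and from 9.75 to 16.4 CPM in cKO libraries in 20% O2. Summed endothelial markers ranged from 11.5 to 76.6 CPM over all groups, which was nearly all Tek (11.3 to 76.5 CPM). The other endothelial markers reached at most 0.29 CPM (Pecam1), 0.65 CPM (Cdh5), 0.64 CPM (Kdr) and 0.05 CPM (Emcn). The part of these cell types in the difference of Casp12 was not tested. Summed leukocyte markers stayed between 19.3 and 38.4 CPM in all groups, and Ptprc, Adgre1, Tyrobp and Fcer1g were each at 0 in at least 11 of the 18 libraries and never above 0.23 CPM.

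In gesicle-treated Ctrl TFs in 20% O2, the values of Casp1, Casp4, Casp8 and Casp12 were higher in each of the 3 treated libraries than in any of the 3 untreated ones. None of these differences passed the edgeR test after adjustment. The same Ctrl libraries serve as the reference for the cKO comparison, so the 2 comparisons are not independent.

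Casp12 was at 48.5, 58.2 and 66.0 CPM after gesicles in 20% O2, against 29.3, 37.4 and 35.5 CPM without, a log2 difference of 0.76 ± 0.18 SE (adjusted p = 0.355, unadjusted p = 0.000843). DESeq2 called Casp12 here (adjusted p = 0.0496). Casp1 was at 1.95, 2.35 and 3.75 CPM after gesicles, against 0.724, 1.51 and 1.61 CPM without, a log2 difference of 1.07 ± 0.43 SE (unadjusted p = 0.0244). Casp4 was at 3.24, 5.84 and 3.18 CPM, against 1.64, 2.69 and 1.16 CPM, a log2 difference of 1.16 ± 0.42 SE (unadjusted p = 0.0139). All 3 inflammatory caspases thus lay higher in every treated library, with Casp4 replicate 2 the highest of the series. Casp8 was at 62.5, 59.6 and 60.2 CPM, against 47.0, 54.7 and 43.8 CPM, a log2 difference of 0.33 ± 0.10 SE (adjusted p = 0.784, unadjusted p = 0.00501).

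The replicate numbers paired Ctrl and gesicle-treated libraries, and every pair moved the same way for these 4 genes in 20% O2. Their groups did not overlap, so every possible pairing would move up, and the pairs add no support to that. The share of all genes that moved the same way in every pair was not counted. The paired log2 differences were 0.73, 0.64 and 0.89 for Casp12, 1.41, 0.64 and 1.21 for Casp1, and 0.98, 1.11 and 1.44 for Casp4. For Casp8 they were 0.41, 0.12 and 0.46. Casp2 also moved up in every pair, by 0.16, 0.18 and 0.18 in 20% O2 and by 0.26, 0.01 and 0.02 in 1% O2, although its groups overlapped and the edgeR test with the replicate block gave an unadjusted p of 0.249 in 20% O2. With the replicate block, edgeR gave Casp12 an adjusted p of 0.358, and DESeq2 one of 0.0242. In a fit of these 6 libraries alone with the block, an alternative chosen after the data were seen, it was 0.0553.

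By the edgeR rule 0 of 8 caspases were called in this comparison, beside 0.0247% of all genes, and by DESeq2 1 of 8, beside 0.267%. At an unadjusted p under 0.05 with a fold change of at least 1.5, 3 of 8 passed (Casp1, Casp4 and Casp12), beside 2.41% of all genes. Non-overlapping groups were found for 4 of 8, beside 12.5% of all genes. The other 4 caspases overlapped, with 95% intervals of the log2 difference from -0.14 to 0.48 for Casp2, from -0.26 to 0.42 for Casp6, from -0.39 to 0.28 for Casp9 and from -0.85 to 0.56 for Casp14.

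In 1% O2 the gesicle-treated libraries were no longer apart from Ctrl. Casp12 was at 46.8, 39.2 and 60.1 CPM after gesicles and 29.2, 39.5 and 46.1 CPM without, a log2 difference of 0.35 ± 0.18 SE (adjusted p = 1). Casp1 was at 2.03, 1.16 and 2.71 CPM, against 1.19, 1.19 and 2.64 CPM, and Casp4 at 1.97, 1.71 and 2.26 CPM, against 0.773, 2.83 and 1.53 CPM. Of the 8 caspases 0 were called by edgeR (0% of all genes) or DESeq2, 0 passed at an unadjusted p under 0.05 with the fold change (1.45%), and 0 had groups that did not overlap (6.32%). Averaged over oxygen, 0 of 8 were called by either tool (0.0495% of all genes by edgeR), with Casp12 at 0.55 ± 0.13 SE (adjusted p = 0.189), and 2 of 8, Casp1 and Casp4, passed at an unadjusted p under 0.05 with the fold change (1.88%). Casp12 (unadjusted p = 0.000626, 1.47-fold) and Casp8 (unadjusted p = 0.0156, 1.14-fold) were under 0.05 as well but short of the fold change of 1.5.

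**Figure D3:**
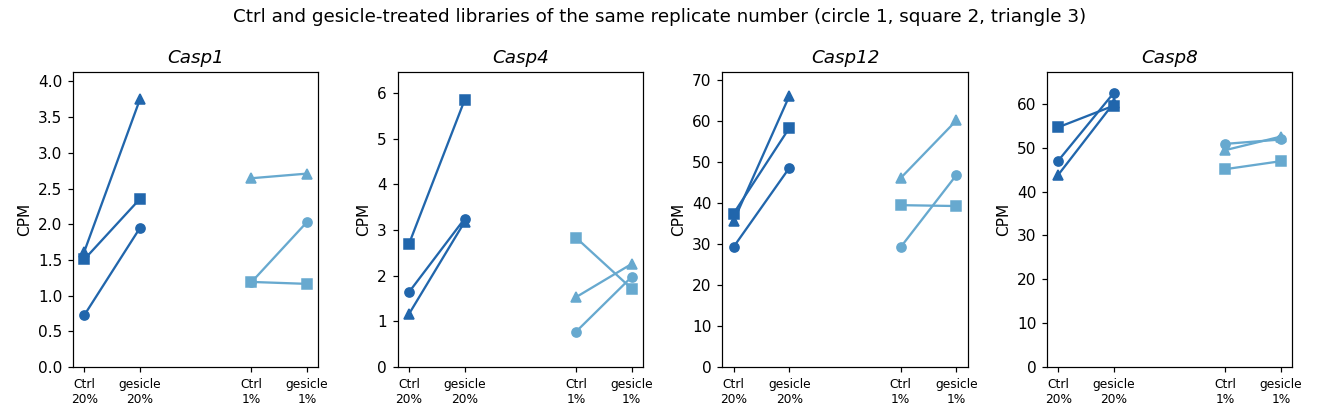
CPM (y axis, from 0) of Casp1, Casp4, Casp12 and Casp8 in Ctrl and gesicle-treated libraries (x axis), with a line for each replicate number at each oxygen level. Every line rises in 20% O2, whereas in 1% O2 replicate 2 falls or stays level for Casp1, Casp4 and Casp12.

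Gbp2, an interferon-induced guanylate-binding protein that helps caspase-11 reach bacteria, was high in most but not all gesicle-treated libraries. It was at 88.8, 146 and 77.2 CPM after gesicles in 20% O2, against 28.5, 38.7 and 15.4 CPM without (log2 difference 1.92 ± 0.44 SE, adjusted p = 0.301). After gesicles in 1% O2 it was at 59.4, 17.6 and 45.7 CPM. Replicate 2 was thus the one treated library without high Gbp2, and it was also the lowest of its group for Casp1, Casp4, Casp12 and Casp8. Untreated libraries varied too. Ctrl replicate 2 had the highest Gbp2 and Casp4 of its group in 20% O2 (38.7 and 2.69 CPM) and in 1% O2 (24.5 and 2.83 CPM). Casp1 was not the highest of its group in either library (1.51 and 1.19 CPM). In cKO 1% O2 replicate 2, Gbp2 stood at 34.0 CPM, the highest of its group, while Casp4 (1.47 CPM) was the lowest and Casp1 (1.38 CPM) lay between the others. The part of this variation in the caspase differences was not tested.

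In 20% O2, 0 of 10 tested inflammasome genes were called by edgeR after gesicles, and 4 passed at an unadjusted p under 0.05 with the fold change, with a list median of 0.55 beside 0.01 for all genes. DESeq2 called 1 of them, Gbp2. Gsdmd, which encodes the pore protein that Casp1 and Casp4 cleave, was at 61.6, 45.6 and 46.8 CPM after gesicles, against 34.1, 29.3 and 27.3 CPM without (log2 difference 0.76 ± 0.20 SE, adjusted p = 0.443). Of 10 interferon regulators 0 were called by edgeR or DESeq2, 3 passed at an unadjusted p, and the median was 0.53. In the death receptor list 0 of 10 were called by edgeR and 1 by DESeq2, Mlkl, the effector of necroptosis, a form of death that Casp8 restrains (0.76 ± 0.14 SE, adjusted p = 0.111 by edgeR). The median of the ER stress list was -0.03, with 0 of 21 genes called by edgeR or DESeq2 and 0 at an unadjusted p.

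**Figure D4:**
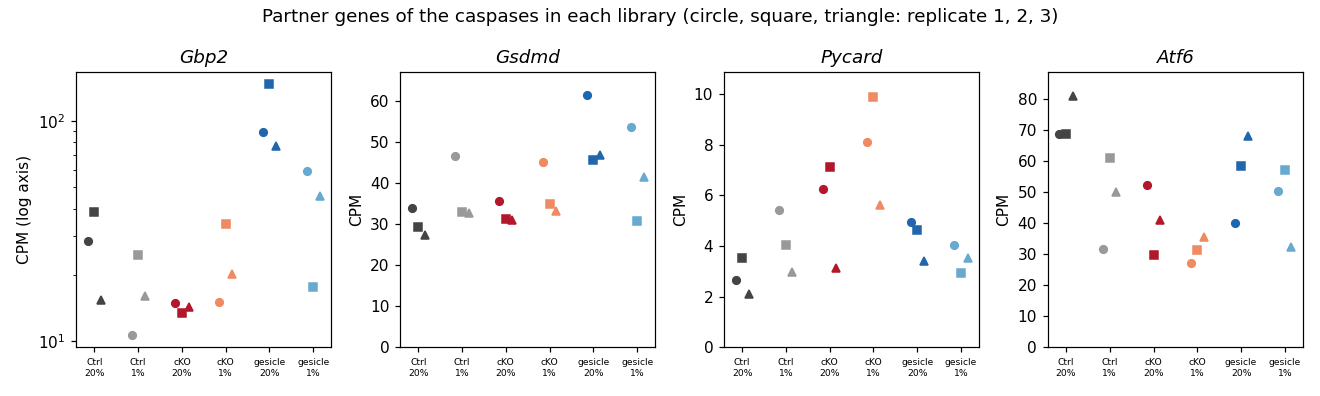
CPM (y axis, log scale for Gbp2) of 4 partner genes in the 18 libraries by group (x axis), with 1 point per library. Gbp2 is above every Ctrl library in 5 of the 6 gesicle-treated libraries, Pycard reaches its highest values in cKO libraries, and Atf6 is lower in cKO than in Ctrl libraries in 20% O2.

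The cKO and gesicle-treated TFs were compared directly, with the limit that a deletion of Hif1a in the gesicle-treated TFs was not checked. The labels and the paper's husbandry section also differ on whether Ctrl cells carried floxed Hif1a. In 20% O2, Casp12 stood at 65.9 ± 3.76 CPM in cKO and 57.6 ± 8.78 CPM in gesicle-treated TFs (SD, n = 3 each), a log2 difference of 0.19 with a 95% interval from -0.19 to 0.58. Casp1 and Casp4 were lower in every cKO library than in any gesicle-treated one, with log2 differences of -0.85 ± 0.43 SE (adjusted p = 0.489) and -0.78 ± 0.41 SE (adjusted p = 0.510). Casp6 was higher in every cKO library, by 0.38 ± 0.16 SE (adjusted p = 0.399). Casp8 did not differ beyond its spread, with an interval from -0.20 to 0.23. These 3 of 8 non-overlapping caspases compare with 14.6% of all genes. By edgeR 0 of 8 were called (0.513% of all genes), 0 passed at an unadjusted p with the fold change (6.18%), and DESeq2 called 0. Interferon-related partners were called in this comparison, as Gbp2 (log2 fold change -2.87 ± 0.46 SE, adjusted p = 0.0179), Gbp5 (-4.82 ± 0.88 SE) and Mlkl (-0.73 ± 0.14 SE) were lower in cKO TFs.

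In 1% O2, Casp12 was higher in every cKO library (73.4 to 93.6 CPM) than in any gesicle-treated one (39.2 to 60.1 CPM). The log2 difference was 0.72 ± 0.18 SE, which edgeR did not call (adjusted p = 0.180) and DESeq2 did (adjusted p = 0.0292). Casp2 was lower in every cKO library, by a log2 difference of -0.23 ± 0.15 SE (adjusted p = 0.460). These 2 of 8 compare with 17.3% of all genes. By edgeR 0 of 8 were called (0.0124% of all genes), by DESeq2 1 of 8 (1.02%), and at an unadjusted p 1 of 8, again Casp12 (7.90%).

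Within gesicle-treated TFs, 1% against 20% O2 gave a lower fitted level for 7 of the 8 caspases, none of which was called. Casp4 was at 3.24, 5.84 and 3.18 CPM in 20% O2 and at 1.97, 1.71 and 2.26 CPM in 1% O2, a log2 difference of -1.04 ± 0.42 SE (adjusted p = 0.204). Casp8 went from 62.5, 59.6 and 60.2 CPM to 51.9, 46.9 and 52.6 CPM, a log2 difference of -0.27 ± 0.10 SE (adjusted p = 0.167). The groups did not overlap for Casp4, Casp8, Casp9 and Casp14, all lower in 1% O2, which makes 4 of 8 beside 24.0% of all genes. By edgeR 0 of 8 were called (2.41% of all genes), 1 of 8, Casp4, passed at an unadjusted p with the fold change (9.41%), and DESeq2 called 0. Casp12 differed by -0.24 ± 0.18 SE, whereas 6 of 21 ER stress genes rose in the same comparison, among them Herpud1 (0.94 ± 0.18 SE, adjusted p = 0.00918) and Hsp90b1 (0.64 ± 0.14 SE, adjusted p = 0.0248).

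Whether the differences depended on oxygen was tested by interaction terms. For genotype, 0 of 8 caspases were called by edgeR or DESeq2 (0% of all genes by edgeR) and 0 passed at an unadjusted p with the fold change (1.84%). The interaction for Casp12 was 0.12 with a 95% interval from -0.40 to 0.64, and without Ctrl 1% O2 replicate 1 it was -0.040. For gesicle treatment, 0 of 8 were called by either tool (0% by edgeR) and 0 passed at an unadjusted p (1.24%). The terms were -0.84 ± 0.60 SE for Casp1, -0.94 ± 0.59 SE for Casp4, -0.41 ± 0.26 SE for Casp12 and -0.27 ± 0.14 SE for Casp8, so that a smaller gesicle difference in 1% O2 was not established for any of them. From 20% to 1% O2, Casp12 moved up in the cKO pairs of equal number (by 0.43, 0.24 and 0.18) and down in the gesicle-treated ones (by -0.05, -0.57 and -0.14). A test of that difference, chosen after these values were seen, gave 0.53 ± 0.26 SE (adjusted p = 1, unadjusted p = 0.0587).

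The genes whose log2 CPM followed each caspase most closely over the 18 libraries were different for each. They are given as a description, since the libraries share groups, depth and donors. For Casp12 they were Pla1a (Pearson r = 0.917), Abhd17c (0.895) and Bmp4 (0.887), and for Casp4 they were Gla (0.856), Cxcl9 (0.811), an interferon-induced chemokine, and Irf1 (0.797), an interferon regulator. Casp1 followed Art3 (0.804), Panx1 (0.763), a channel that caspases open, and Galnt18 (0.716). Casp6 followed Etfb (0.969), Ndufv2 (0.959) and Ndufa6 (0.952), genes of the mitochondrial electron transport system. For Casp8 they were Sae1 (0.858), Rfc3 (0.856) and Litaf (0.821), for Casp9 Agtrap (0.935), Dlgap4 (0.918) and Septin8 (0.917), for Casp2 Sardh (0.863), Otud5 (0.853) and Fgd1 (0.847), and for Casp14 Csnk2a2 (0.840), Bclaf1 (0.812) and Matn3 (0.809). The caspases of the cluster on chromosome 9 did not appear in each other's lists of 3. Of the 8 keratinocyte markers set beside Casp14, some were near 0 and others were not. Krt1 was at 0 in 16 and Krt14 in 13 of the 18 libraries, and Krt5 and Ivl never exceeded 0.28 CPM. Sbsn (18.9 to 53.6 CPM), Dsp (at least 10.4 CPM), Krt10 (3.27 to 8.11 CPM) and Trp63 (0.200 to 1.02 CPM) were present in every library, and the summed markers ranged from 38.5 to 72.1 CPM. The part of such cells in the Casp14 level was not tested. Of 4 tested keratinocyte markers, Dsp fell in cKO TFs in the average over oxygen (log2 fold change -0.68 ± 0.17 SE, adjusted p = 0.0467), while Casp14 did not pass.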

How the data were processed

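Poly-A RNA of mouse tail TFs was sequenced in 18 libraries, grouped as the labels name them. The deposited values are estimated counts, which the authors obtained with RSEM 1.3.3 after trimming and STAR alignment to GRCm38, rounded to whole numbers and not normalized. RSEM shares reads between related genes by a model, which bears most on genes with few counts.

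Tests used the quasi-likelihood method of edgeR 4.0.16 (R 4.3.3) after filterByExpr and TMM, for cKO against Ctrl TFs in a fit of 12 libraries (15850 genes) and for gesicle comparisons in a fit of all 18 (16174 genes), with Benjamini-Hochberg adjustment over all genes tested. DESeq2 1.42.0 was the second tool. Standard errors are the log2 fold change over the root of the F statistic. The code was tested on simulated data. Positions came from GENCODE M21 and promoters from RefSeq. Library totals of 6857558 to 51806453 counts set the precision, and no pair of libraries agreed within sampling noise. Deviations of Ctrl and gesicle-treated libraries of equal number were correlated in every pair (r from 0.319 to 0.402 in 20% O2 and from 0.149 to 0.241 in 1% O2), and so were those of Ctrl libraries across oxygen levels, so these numbers were read as pairs, which the labels do not state. The members, gene lists and naming rule were chosen with earlier results of these data known. The rule names the 8 caspases, genes near Casp12, the 3 genes most like each caspase, and list genes that were called or differed most. Other list genes, such as Nlrp3, Il1b, Gsdmd and the markers, were named after their values were seen. Some results are not reported here.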

Additional observations from a re-analysis of the deposited data

Results flagged for a closer look

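3 transgene sequences in the count table, which entered no comparison, had counts in 1 arm and 0 counts in all 6 Ctrl libraries. Cre had 15 counts in all over 5 of the 6 cKO libraries, with at most 5 in any of them, and eGFP had 14 counts over 5 of the 6 cKO libraries, again with at most 5. tdTomato had 8 counts over 5 of the 6 gesicle-treated libraries, with at most 3 in any, and mCherry had 0 counts in all 18. Most of these counts lie at or below the floor of 3 counts per library, and cKO 1% O2 replicate 1, the shallowest library, had 0 for all of them. Casp12 was high in that library as well (93.6 CPM). Groups of 3 libraries are too small for a test of single outlying samples, and no interaction term of a caspase passed its test.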

How the results depend on the processing

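Casp12 in the average of cKO against Ctrl TFs over oxygen was called under 11 of 12 alternatives and without any 1 of the 12 libraries. Some of these alternatives could not lose the call. Unadjusted p-values and no fold change minimum only loosen the rule, and the fit of the groups compared repeats the main fit. The call was lost (0 caspases called) when both oxygen levels were summed per replicate number, which stops counting those libraries as separate samples. In 20% O2 the count of called caspases went from 1 to 0 with the replicate block, in a fit of the 2 groups alone, and without each library in turn (0 to 0). In 1% O2 it went from 0 to 1, always Casp12, with DESeq2, DESeq2 with the replicate block, no filter on low counts, a fit of all 18 libraries, Xist as a covariate, and unadjusted p-values. For gesicle treatment in 20% O2 it went from 0 to 1 (Casp12) with DESeq2 with and without the replicate block and to 3 with unadjusted p-values, and in the average to 2 with unadjusted p-values. For cKO against gesicle-treated TFs in 1% O2 it went from 0 to 1 with DESeq2 with and without the block and with unadjusted p-values, and for oxygen within gesicle-treated TFs to 1 (Casp4) with unadjusted p-values. RLE size factors, a stricter filter (CPM above 1 in 3 or more libraries) and no fold change minimum changed no count of called caspases. The causes of these changes were not tested. Of 41 member differences of at least 1 SE, or of Casp12, 1 changed sign, the genotype interaction of Casp12 which ran from -0.040 to 0.296 without 1 library (-0.040 without Ctrl 1% O2 replicate 1), and of 47 smaller ones 31 changed sign under at least 1 alternative and 0 were ever called. Ctrl libraries also paired by number across oxygen levels (mean r of 0.313, every pair above 0.1), which the cKO (0.175) and gesicle-treated libraries (0.0992) did in part of their pairs. Pairing between genotypes was not clear: cKO and Ctrl libraries of equal number had a mean r of -0.0938 in 20% O2 and 0.0975 in 1% O2. Depth limits Casp1 most, which had 5 counts in the shallowest library.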
